A study of Mus musculus with 28 samples.

Results

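The genes described here encode transcription factors of photoreceptors: Crx, Otx2, Nrl, Nr2e3, Neurod1, Rorb, Prdm1, Thrb, Rxrg and Mef2d. They were chosen by name for this role, with earlier results of these data known, and all 10 were found among the 55413 genes of the GENCODE M21 annotation. Each gene was taken with 20 kb to each side, and every accessible region overlapping that window was listed. This gave 54 of the 46189 regions of the control list and 66 of the 64883 regions of the db/db list.

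The study compared the retinae of diabetic db/db mice with controls, and ATAC-seq, in which a transposase cuts and tags open chromatin, was done on Müller cells, the main glia of the retina, to ask which factors change with diabetes. Db/db mice carry a mutant leptin receptor (Lepr) on both alleles, on the BKS background in a colony drawn from 2 suppliers, and the control samples are labelled WT, although the study as a whole counted wild-type and db/+ mice as controls. All ATAC-seq mice were 6 months old, and mice of both sexes were used in the study. Müller cells were taken by magnetic sorting for CD29 after microglia (CD11b) and endothelial cells (CD31) had been removed by sorting. Retinal neurons were not removed beforehand and mostly stayed in the fraction without CD29. The study held that some photoreceptor contamination of the Müller cells was unavoidable. For each genotype 1 peak list was used, which is attached to replicate 1 of 2 without a statement whether it was called on that replicate alone, and the RNA-seq samples were not analysed here.

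With 1 list per genotype there was no replicate check and no test between genotypes. Every count below is therefore a description of these lists, and its 95% intervals (exact, Clopper-Pearson) cover counting error only. Read depth was not analysed here, so that the lengths of the lists cannot be told apart from depth and threshold. Of all control regions 4.16% had no overlapping db/db region (1920 regions, termed control-only), whereas 31.3% of all db/db regions had no control region (20324, termed db/db-only). A region missing from a list was not called there, which does not show that the site was closed. The strength of a region is given as the percentile of its signal, a fold enrichment, among all regions of its own list. Because the db/db list is longer at its weak end, a region in both lists tends to have the higher percentile there. The sorted population was checked by its markers. All 10 Müller glia markers, such as Glul and Rlbp1, had a promoter region in both lists, and 0 of their 46 control regions were control-only. Promoter regions were also present at genes that mark rods, such as Gnat1 and Prph2, at 8 of 10 in control and 5 of 10 in db/db. Of all protein-coding genes 58.5% and 61.6% had one. The counts were 5 and 4 of 10 at cone target genes and 7 and 5 of 10 at bipolar factors. At factors of amacrine, ganglion and horizontal cells they were 3 and 5 of 10. The part that rod chromatin in the sorted cells had in the regions below was not tested.

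Photoreceptors arise from precursors in which the homeobox factor OTX2 switches on its relative CRX and the repressor PRDM1 (BLIMP1) holds back the bipolar fate. RORB acts upstream of the rod leucine zipper factor NRL, which in turn switches on the nuclear receptor NR2E3, and these together install the rod programme and repress cone genes. Thyroid hormone receptor beta and RXR gamma set the choice of cone opsin, and NEUROD1 and MEF2D take part in maintaining photoreceptors and their gene expression. CRX and OTX2 bind sequences around GGATTA.

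Sequence upstream of the starts was taken from RefSeq (GRCm38.p6, the build of the lists, mm10), 250 bases before each of 16 starts annotated for the 10 genes. Of these 16 windows 8 overlapped a control region and 8 a db/db region. Both lists covered 6 windows and neither list covered another 6. Windows of Nr2e3 and Neurod1 were covered in the control list only, and 1 window each of Rorb and Rxrg in the db/db list only. The RefSeq window of Nrl and all 4 of Otx2 were covered in neither list. No share over all RefSeq windows is given beside these counts, so that they only describe the windows of these genes. The windows shown are those of Nr2e3, Neurod1 and Rxrg, where the lists differed, and that of Crx, which holds the most copies of the CRX and OTX2 string. The Rorb window where the lists also differed is not shown. Capitals mark GGATTA on either strand, and each sequence reads 5′ to 3′ along the gene's strand.
Crx, chr7:15879956-15880205, minus strand: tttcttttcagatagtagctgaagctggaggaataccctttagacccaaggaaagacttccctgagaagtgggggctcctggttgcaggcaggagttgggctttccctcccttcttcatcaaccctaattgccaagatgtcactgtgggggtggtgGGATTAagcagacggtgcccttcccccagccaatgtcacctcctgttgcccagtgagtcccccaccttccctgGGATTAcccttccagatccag
Nr2e3, chr9:59950080-59950329, minus strand: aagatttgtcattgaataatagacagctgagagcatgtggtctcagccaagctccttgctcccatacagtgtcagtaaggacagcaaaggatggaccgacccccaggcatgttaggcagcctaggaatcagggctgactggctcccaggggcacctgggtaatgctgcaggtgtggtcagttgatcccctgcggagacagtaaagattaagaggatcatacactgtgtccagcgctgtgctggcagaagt
Neurod1, chr2:79456637-79456886, minus strand: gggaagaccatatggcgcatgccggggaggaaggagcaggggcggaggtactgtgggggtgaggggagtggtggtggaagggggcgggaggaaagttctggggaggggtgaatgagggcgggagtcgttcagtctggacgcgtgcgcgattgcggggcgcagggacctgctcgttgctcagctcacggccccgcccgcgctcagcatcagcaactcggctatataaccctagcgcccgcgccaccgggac
Rxrg, window 1, chr1:167598112-167598361, plus strand: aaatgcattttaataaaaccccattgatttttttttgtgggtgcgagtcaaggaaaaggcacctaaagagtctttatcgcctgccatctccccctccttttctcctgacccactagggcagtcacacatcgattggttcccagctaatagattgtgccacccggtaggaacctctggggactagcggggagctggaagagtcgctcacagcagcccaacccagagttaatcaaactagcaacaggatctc

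The string GGATTA or its complement TAATCC was present in 3 of the 16 windows (18.8%, 95% interval 4.05–45.8%), against 6.25% of all 32851 RefSeq windows of this length. The interval takes the windows as independent, although Otx2 gives 4 of them and its windows 3 and 4 overlap. The Crx window held it at 2 places, starting 94 and 21 bases before the start. The second window of Otx2 held it 211 bases and the first window of Thrb 46 bases before the start. The windows of Nr2e3, Neurod1 and Rxrg shown above held none. The shorter string GATTA, which lies within GGATTA, was in 7 of the 16 windows against 19.8% of all. TGCTGA, a half-site of NRL, was in 4 windows (16.1% of all), AGGTCA, a half-site of nuclear receptors, in 2 (14.0% of all), CAGATG, an E-box of NEUROD1, in 2 (14.4% of all), and the MEF2 site, CTA and TAG with 4 bases of any kind between them, in 0 (3.20% of all). A control string with the letters of GGATTA in another order, GAGTTA, was in 2 windows against 7.55% of all. All strings were searched on both strands, and a match is a description of the letters and not of a bound site.

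Across the 10 genes, 14 of 54 control regions were control-only (25.9%, 95% interval 15.0–39.7%), against 4.16% of the whole control list. With the db/db list shortened by −log10 p to the length of the control list it was 20 of 54 (37.0%) against 13.1%. Of the 66 db/db regions 26 were db/db-only (39.4%, 27.6–52.2%), against 31.3% of the whole db/db list, and 10 of 44 (22.7%) against 13.0% with the db/db list so shortened. The other 40 regions were in both lists, each with 1 partner. At least 1 control-only region was found at 9 of the 10 genes, with Rxrg the exception, which held for 11.3% of the 17079 protein-coding genes with a control region in the same window. At least 1 db/db-only region was found at 5 of the 10 (Rorb, Prdm1, Thrb, Rxrg and Mef2d), against 56.7% of protein-coding genes with a db/db region. These gene shares were not matched for the number of regions per gene. When each summit of a region was counted instead of the region, 22 of 89 control summits lay in no db/db region (24.7%, against 6.82% of all control summits), and 40 of 110 db/db summits lay in no control region (36.4%, against 30.4% of all).

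**Figure D1:**
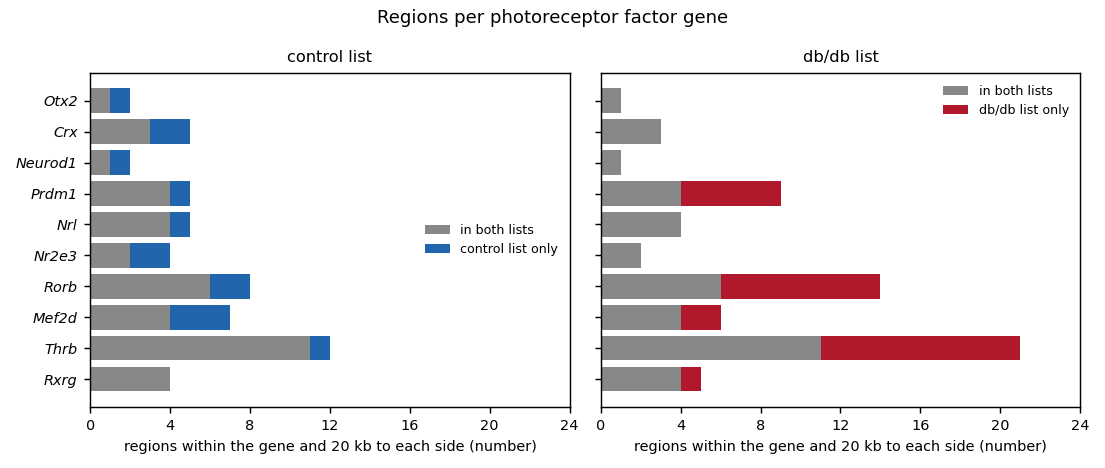
Number of accessible regions (x axis) within each gene and 20 kb to each side in the control list (left) and the db/db list (right); grey bars count regions in both lists and coloured bars regions in that list only. Crx, Otx2, Nrl, Nr2e3 and Neurod1 have control-only and no db/db-only regions, whereas Thrb has 10 and Rorb 8 db/db-only regions.

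The counts divided by gene length. At the shorter genes Crx, Otx2, Nrl, Nr2e3 and Neurod1, 4.23 to 17.9 kb long, 7 of 18 control regions were control-only (38.9%, 17.3–64.3%) and 0 of 11 db/db regions were db/db-only (an interval up to 28.5%). At the 3 longest genes, Rorb, Prdm1 and Thrb, 4 of 25 control regions were control-only (16.0%, 4.54–36.1%) and 23 of 44 db/db regions were db/db-only (52.3%, 36.7–67.5%). At Mef2d and Rxrg, between these in length, the counts were 3 of 11 and 3 of 11. The db/db list was also shortened to its 46189 regions of highest −log10 p, the length of the control list. A cut by signal percentile was not made. With this shorter list the 3 longest genes had 6 of 25 control-only and 7 of 26 db/db-only regions (26.9%), and Rorb had no db/db-only region left. The 5 shortest genes then had 11 of 18 control-only regions (61.1%) and 0 of 7 db/db-only. Over all regions the shares were then 13.1% control-only and 13.0% db/db-only, against 4.16% and 31.3% with the whole lists. The division by gene length was made after the values had been seen, and gene length and the genes' role cannot be told apart in it. By place, 9 of 27 intronic control regions were control-only and 17 of 35 intronic db/db regions were db/db-only. In the whole lists the shares away from protein-coding promoters were 5.22% for control and 37.4% for db/db regions, and at these promoters 1.64% and 12.1%.

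**Figure D2:**
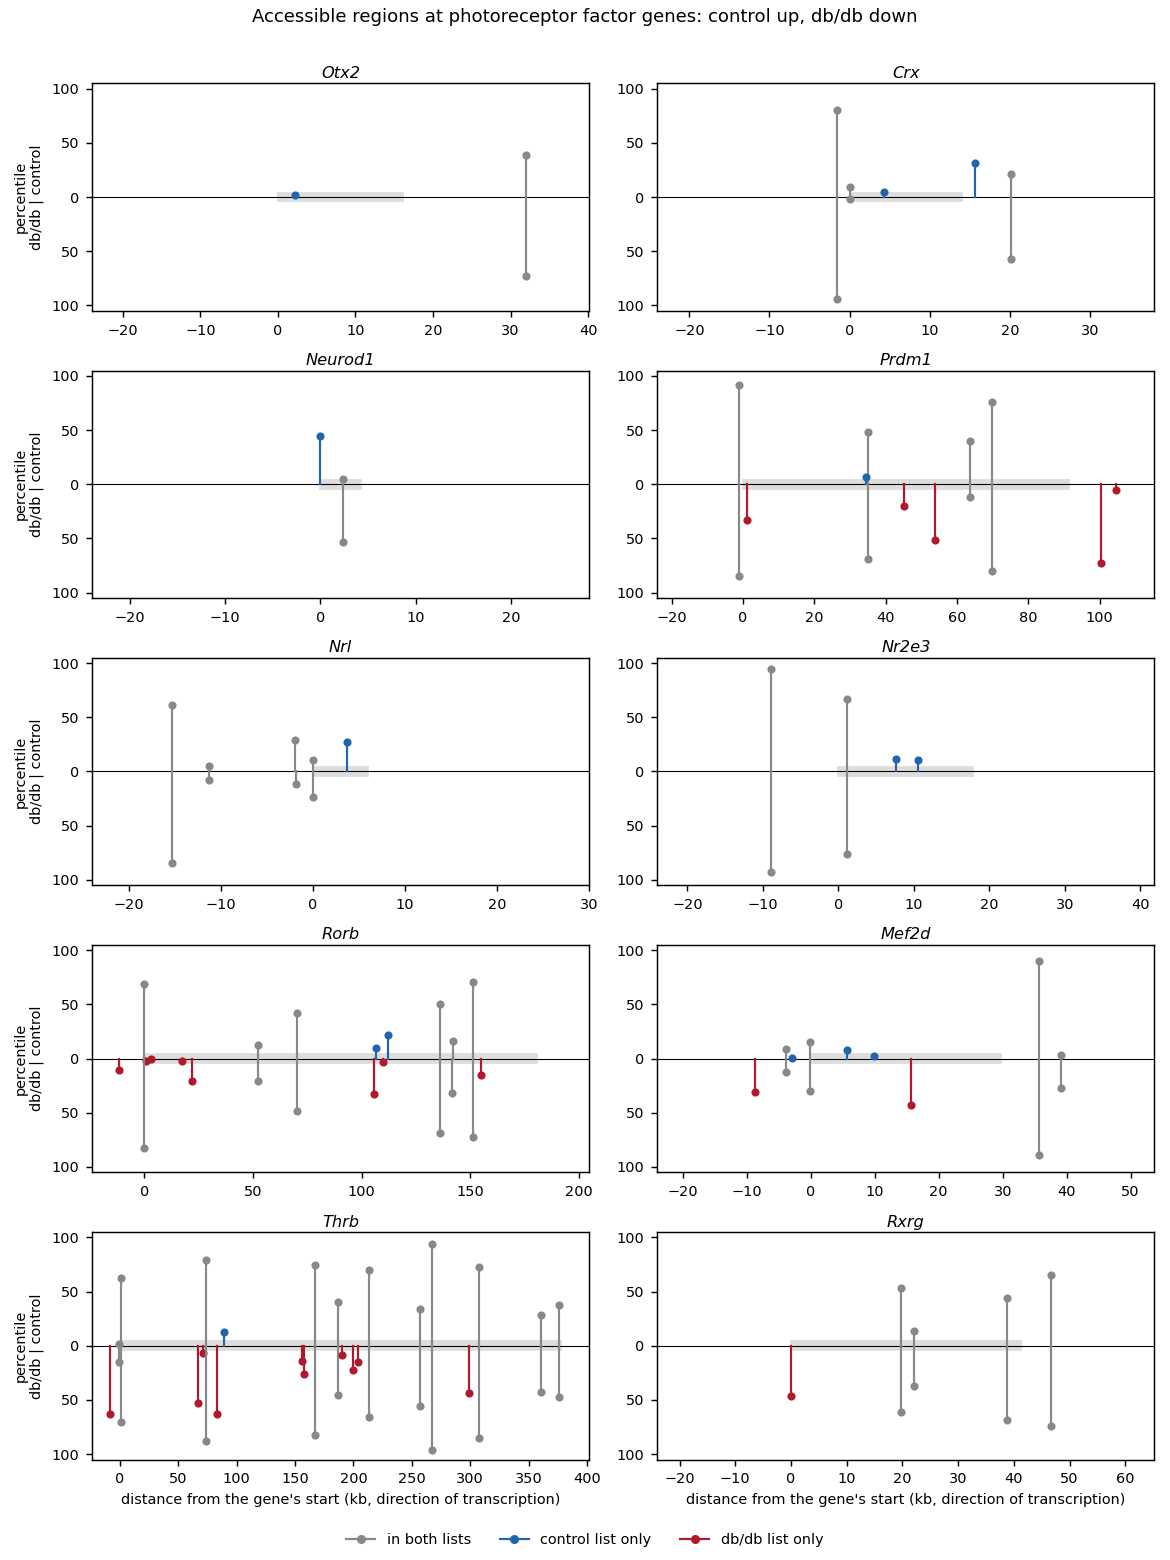
Each panel is 1 gene, with the distance of a region's summit from the gene's start in kb along the direction of transcription on the x axis, and the percentile of the region's signal within its own list on the y axis, upwards for control and downwards for db/db. The grey box is the gene, grey stems are regions in both lists, blue stems control-only and red stems db/db-only; the 14 blue stems all end below the 50th percentile.

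By signal, the control-only regions of the 10 genes were of low to middle strength. Their percentiles ran from 0.210 to 44.6 with a median of 9.99, against a median of 18.7 for all control-only regions. By −log10 q the order was the reverse, with a median of 66.5 against 50.6 for all control-only regions. Their deposited −log10 q was between 32.7 and 272. The smallest value of the control list was 0.548, but by what measure peaks were kept is not given in the sources used here. Below the 25th percentile of the control list 11 of 23 regions at these genes were control-only (47.8%), against 10.5% of all regions there, and between the 25th and 50th 3 of 13 (23.1%) against 4.20%. From the 50th to the 75th percentile it was 0 of 11 and above the 75th 0 of 7, against 1.60% and 0.364%. The db/db-only regions had percentiles from 0.338 to 72.7 with a median of 21.4, near the 23.5 of all db/db-only regions. In the same ranges of percentile, from the weakest, 14 of 22, 7 of 15, 5 of 17 and 0 of 12 were db/db-only, against 66.0%, 41.9%, 15.4% and 2.01% of all. Below the 50th percentile the control-only share at these genes was thus above that of the list, while the db/db-only shares there lay close to it. The nearest db/db region was 0.053 to 29.2 kb from a control-only region, and 3 of the 14 had one within 1 kb.

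**Figure D3:**
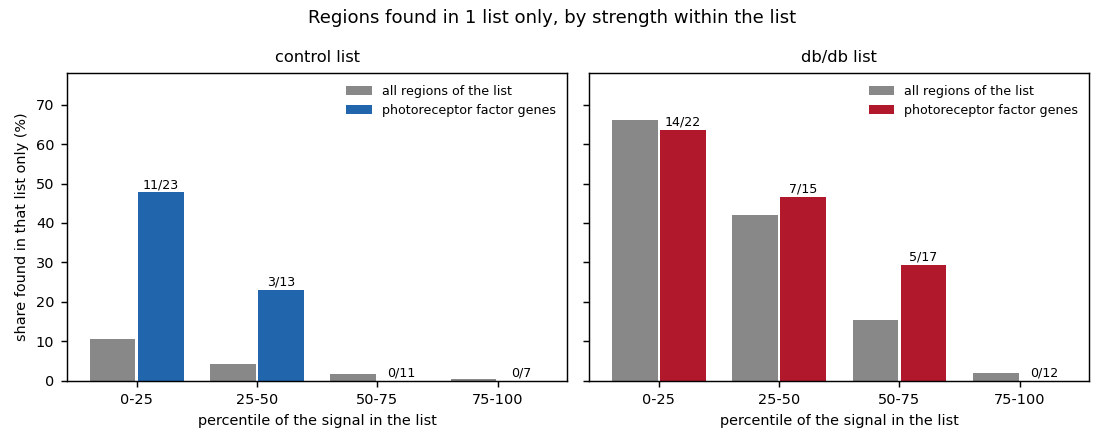
Share of regions found in that list only (y axis, %) by range of the signal percentile (x axis, 25 points each), for the control list on the left and the db/db list on the right; grey bars are all regions of the list and coloured bars those at the 10 genes, with counts above. Below the 25th percentile the control bar of the 10 genes stands at 47.8% and that of all regions at 10.5%, and the paired db/db bars are at 63.6% and 66.0%.

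Promoter regions, with a summit within 1 kb of an annotated start of the gene, were found at 9 of the 10 genes in the control list and at 7 in the db/db list, against 58.5% and 61.6% of all 21938 protein-coding genes. Neurod1 and Nr2e3 had a promoter region in the control list and none in the db/db list. For Nr2e3 this region was at an internal start, 10.5 kb into the gene, and the difference between the lists depended on the window. A shared region with its db/db summit 1.17 kb from a start of Nr2e3 counts as a promoter region at 2 kb. At 2 kb 8 genes had a promoter region in the db/db list, against 63.8% of all protein-coding genes. Of the 12842 protein-coding genes with a promoter region in the control list 92 had none in the db/db list (0.716%), and the reverse held for 5.63% of 13511, but for 0 of the 7 genes here. Otx2 had none in either list.

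Among the factors of the precursor, Otx2, the homeobox factor at the head of the cascade (ENSMUSG00000021848), had 2 control regions and 1 db/db region. The region downstream of the gene at chr14:48641590-48642326 was at the 38.8th percentile in control and the 72.4th in db/db. The intronic region at chr14:48671544-48671831 was control-only at the 2.21st percentile, with the nearest db/db region 29.2 kb away. Otx2 therefore had no db/db region within the gene, and its single control region there was among the weakest of the list.

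Crx, which drives most photoreceptor genes (ENSMUSG00000041578), had 5 control regions and 3 db/db regions. Its promoter region at chr7:15879794-15880139, which overlaps the sequence shown above, was at the 9.23rd percentile in control and the 1.85th in db/db. By contrast, the upstream region at chr7:15880858-15881832, with its summit 1.59 kb before the start, was strong in both lists, at the 80.3rd and 94.2nd percentile. That control region had a second summit 565 bp from the main one which no db/db region covered. Of the 5 control regions 2 were control-only, one downstream at chr7:15864049-15864734 (31.5th percentile) and one intronic at chr7:15875532-15875835 (4.76th). The remaining downstream region at chr7:15859800-15860303 was at the 21.4th percentile in control and the 57.1st in db/db. The regions around Crx thus moved in both directions, with the promoter lower and the shared flanking regions higher in db/db, also when ranked among single-partner regions (described below).

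Neurod1, a basic helix-loop-helix factor needed for photoreceptor maintenance (ENSMUSG00000034701), had 2 control regions and 1 db/db region. Its promoter region at chr2:79456534-79457030, with the summit 4 bp before the start, was control-only at the 44.6th percentile and was the strongest of the 14. Its −log10 q was 272, and the nearest db/db region was 1.87 kb away. Among the 971 control regions at protein-coding promoters within 5 percentile points of it, 16 were control-only (1.65%). A start of the neighbouring gene Cerkl also lies within 1 kb of this summit, so that the region cannot be given to Neurod1 alone. The region in the exon at chr2:79453884-79454526, by a start of Gm26755, was at the 5.06th percentile in control and the 53.6th in db/db, the largest rise of the 40 shared regions. In the db/db list Neurod1 was therefore marked within its exon and not at its start.

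Prdm1, the repressor that stabilises the photoreceptor fate (ENSMUSG00000038151), had 5 control regions and 9 db/db regions. Its promoter region at chr10:44458466-44459157, at an internal start 69.8 kb into the gene, was at the 76.4th and 79.9th percentile. The upstream region at chr10:44529169-44530150, with its summit 1.02 kb before the gene's start, was at the 91.6th and 84.5th. Both were thus strong in both lists. The intronic region at chr10:44464407-44465661 went from the 40.2nd percentile in control to the 12.0th in db/db, the largest fall of the shared regions, and that at chr10:44492841-44493723 from the 48.1st to the 68.7th. The control-only region at chr10:44493776-44494100 was at the 6.64th percentile and only 0.053 kb from a db/db region. Of the 9 db/db regions 5 were db/db-only, with the strongest downstream at chr10:44427835-44428450 (72.7th percentile) and the next in an intron at chr10:44474268-44474900 (51.2nd).

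Of the rod factors, Nrl, the basic leucine zipper factor that determines rods (ENSMUSG00000040632), had 5 control regions and 4 db/db regions. The region at its first start, chr14:55524851-55525172, was at the 11.0th percentile in control and the 23.2nd in db/db. The region at an internal start, chr14:55520916-55521501, was control-only at the 26.9th percentile, 3.33 kb from the nearest db/db region. Among 792 promoter regions of like strength 34 were control-only (4.29%). Upstream of Nrl, the region at chr14:55526702-55527060 was at the 29.3rd percentile in control and the 11.6th in db/db, and the weak one at chr14:55536197-55536408 at the 4.80th and 7.77th. The strongest region in the window, chr14:55540009-55541186 (61.6th and 84.6th), lies at a start of Pck2. Apart from the region at Pck2, the Nrl regions were in the weaker part of both lists.

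Nr2e3, the nuclear receptor that represses cone genes in rods (ENSMUSG00000032292), had 4 control regions and 2 db/db regions. Its promoter region at chr9:59949988-59950311, which overlaps the sequence shown above, lies at an internal start 10.5 kb into the gene. It was control-only at the 10.3rd percentile, with the nearest db/db region 8.97 kb away. Among 843 promoter regions of like strength 61 were control-only (7.24%). A further intronic region at chr9:59952641-59953112 was control-only at the 11.6th percentile. The other regions were strong in both lists. The intronic one at chr9:59959307-59959703, with its control summit 1.15 kb into the gene, was at the 67.3rd and 75.7th percentile. The upstream one at chr9:59969272-59969726 was at the 94.2nd and 93.1st. At Nr2e3 the weak regions were thus control-only and the strong ones shared. Over both rod factors 3 of 9 control regions were control-only and 0 of 6 db/db regions were db/db-only. The shares over the whole lists were 4.16% and 31.3%.

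Rorb, the orphan nuclear receptor upstream of Nrl (ENSMUSG00000036192), had 8 control regions and 14 db/db regions. The region at its first start, chr19:19110914-19111739, was at the 69.3rd percentile in control and the 82.3rd in db/db. Further shared regions in introns were at chr19:18959800-18960581 (70.8th and 71.9th), chr19:18974904-18975516 (50.0th and 68.6th), chr19:19040411-19041424 (42.2nd and 48.1st) and chr19:18968819-18969859 (15.9th and 31.8th). Its control-only regions, both intronic, were chr19:18998841-18999501 (22.0th percentile) and chr19:19004186-19004619 (9.68th), the latter 0.547 kb from a db/db region. The 8 db/db-only regions had percentiles from 0.338 to 32.5, and all 8 were below the 50th. The strongest was intronic, at chr19:19005167-19005603. They included weak regions near an internal start, chr19:19000988-19001629 (2.87th), and just inside the first start, chr19:19110385-19110771 (2.35th).

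Mef2d, a MADS-box factor that acts with CRX on photoreceptor genes (ENSMUSG00000001419), had 7 control regions and 6 db/db regions. Its promoter region at chr3:88141822-88142614 was at the 15.8th percentile in control and the 30.2nd in db/db. Its 3 control-only regions included the weakest of the 14, upstream at chr3:88139399-88139601 (0.210th percentile, 0.110 kb from a db/db region) and in introns at chr3:88147871-88148247 (7.71st) and chr3:88152158-88152434 (2.75th). Its db/db-only regions were upstream at chr3:88133064-88133772 (30.6th) and in an exon at chr3:88157729-88158420 (43.0th). The strongest region in the window, downstream at chr3:88177481-88178401 (90.1st and 88.9th), lies at a start of 1700113A16Rik. The other shared regions were at chr3:88138279-88139051 (9.02nd and 12.0th) and chr3:88181383-88181740 (3.33rd and 26.7th).

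Of the cone factors, Thrb, the thyroid hormone receptor needed for M opsin (ENSMUSG00000021779), is the longest gene of the group with 378 kb and had 12 control regions and 21 db/db regions. Its promoter region at chr14:17659989-17661567 was at the 62.7th percentile in control and the 70.4th in db/db. The strongest intronic regions were in both lists, at chr14:17927373-17927966 (93.7th and 96.6th), chr14:17733524-17734402 (79.4th and 87.5th), chr14:17827283-17827909 (74.1st and 81.9th), chr14:17967190-17967755 (72.7th and 85.0th) and chr14:17872787-17873968 (70.0th and 66.2nd). All but 1 of the 12 control regions had a db/db partner, the exception being the intronic chr14:17748982-17749273 (12.6th percentile). The 10 db/db-only regions, 9 of them in introns, had percentiles from 6.80 to 63.3. Of these 10, 3 were above the 50th, namely chr14:17742960-17744062 (63.3rd), chr14:17651115-17652069 upstream of the gene (63.0th) and chr14:17726875-17727355 (52.5th).

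Rxrg, the retinoid X receptor that pairs with the thyroid hormone receptor in cones (ENSMUSG00000015843), was the only one of the 10 genes without a control-only region. Its first start was covered in the db/db list only, by chr1:167598151-167598879 at the 46.2nd percentile, and the nearest control region was 19.1 kb away. This region overlaps the Rxrg sequence shown above. Of the 34895 db/db regions of at least its strength 10.2% were db/db-only. The region at the internal start, chr1:167617955-167618623, was in both lists at the 53.3rd and 61.3rd percentile. The other shared regions were intronic at chr1:167620239-167620918 (13.8th and 37.4th) and chr1:167636968-167637395 (44.1st and 68.1st), and downstream at chr1:167644911-167645310 (65.6th and 74.0th). Over both cone factors 1 of 16 control regions was control-only and 11 of 26 db/db regions were db/db-only, against 3 of 9 and 0 of 6 at the rod factors. The shares over the whole lists were 4.16% and 31.3%. Thrb, the longest gene, held 21 of these 26 db/db regions and 10 of the 11 db/db-only ones. These differences between cone and rod factors were not tested, and role cannot be told apart from gene length in them.

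The rank of the 40 shared regions went in both directions. Over the whole lists their percentile was higher in db/db by a median of 8.44 points, near the median of 8.52 over all 43519 regions with a single partner in each list. When the percentile was taken among these single-partner regions, which removes the effect of the longer list, the median change was 0.110 points (SD 12.1, from −33.2 to 32.1), with 20 regions lower and 20 higher in db/db. Over all single-partner regions the median was 0.0873 points (SD 10.6), and 49.3% were lower in db/db. On this scale the exon region of Neurod1 rose by 32.1 points and the downstream region of Otx2 by 23.5. The intronic Prdm1 region at chr10:44464407-44465661 fell by 33.2 points, and the Nrl region 1.90 kb before its start fell by 22.5. The 6 shared regions of Rorb were split, 3 lower and 3 higher, and so were the 11 of Thrb, 5 lower and 6 higher. No replicate is at hand to say which of these single changes exceed the spread between libraries.

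**Figure D4:**
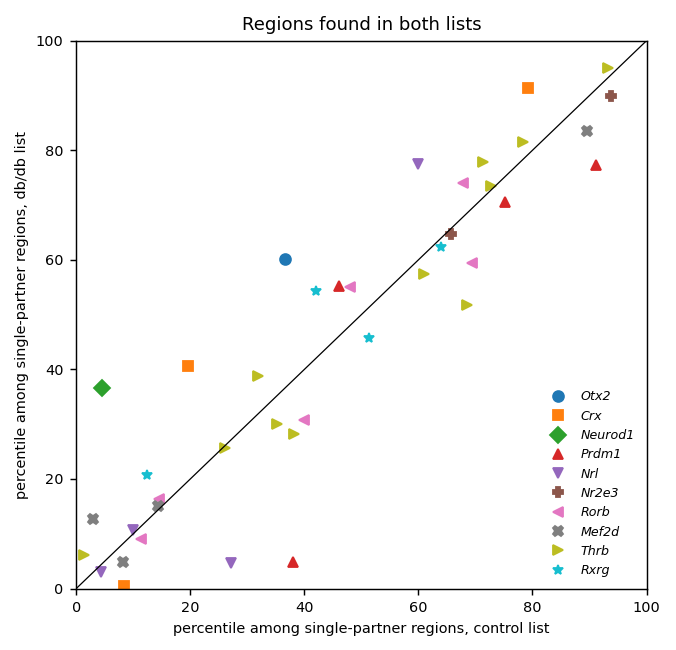
Percentile of the signal among single-partner regions in the control list (x axis) and the db/db list (y axis) for the 40 regions of the 10 genes found in both lists, with 1 symbol per gene and the line of equality. Of the points 20 lie below and 20 above the line, and the farthest are the Neurod1 exon region above it and a Prdm1 intron region below it.

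Other gene lists were counted in the same way for comparison. At 10 rod target genes of these factors 17 of 49 control regions were control-only (34.7%, 21.7–49.6%), and at 10 cone target genes 1 of 22 (4.55%, 0.115–22.8%). At 10 further photoreceptor regulators it was 7 of 58 (12.1%, 4.99–23.3%). At 10 Müller glia factors it was 5 of 107 (4.67%, 1.53–10.6%), and at 10 Müller glia markers 0 of 46 (up to 7.71%). The 25.9% of the photoreceptor factors therefore lay between the further regulators and the rod target genes, with intervals that overlap both, and its interval did not overlap that of the Müller glia lists. The Müller glia lists share the genes Sox9 and Sox2, so that they are not separate comparisons. Shares of db/db-only regions ran from 20% at rod targets to 41.0% at factors of amacrine, ganglion and horizontal cells, with 33.3% at cone targets, 32.2% at Müller glia factors, 27.9% at Müller glia markers, 27.8% at further regulators and 25.9% at bipolar factors, beside 39.4% at the photoreceptor factors. Over all db/db regions the share was 31.3%, and the 95% interval of every list held this value. At rod targets that interval was 9.05–35.6%, and at factors of amacrine, ganglion and horizontal cells 25.6–57.9%. The genes of a list share the same 2 libraries, so that these intervals do not stand for variation between mice.

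**Figure D5:**
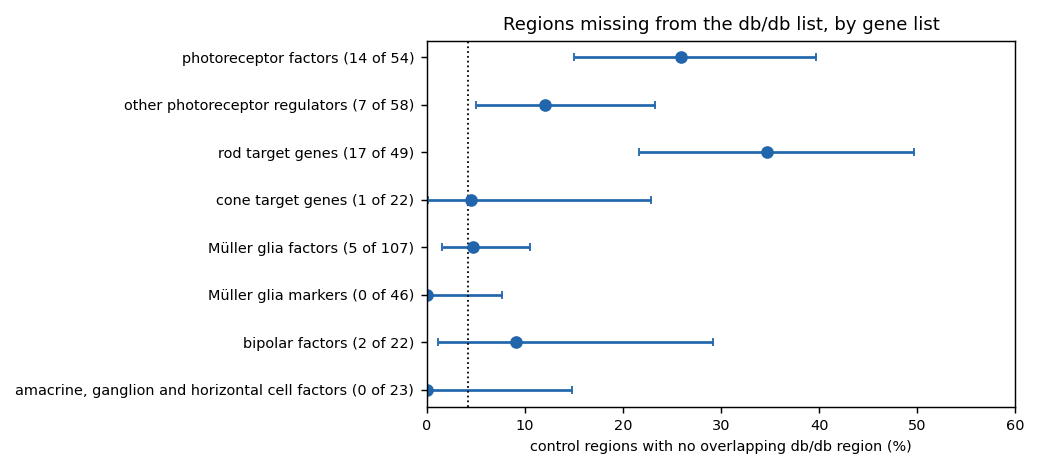
Share of control regions with no overlapping db/db region (x axis, %) for 8 lists of 10 genes each, with exact 95% intervals for counting error and the counts beside the names; the dotted line is the 4.16% of the whole control list. Rod target genes (34.7%) and photoreceptor factors (25.9%) are farthest to the right, and the Müller glia lists lie at 4.67% and 0%.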

How the data were processed

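ATAC-seq peak lists of Müller cells from control and db/db mice, 1 per genotype, were analysed. Peaks are on mm10 per the labels. Each deposited row gives a score (540 to 1000), a signal read as fold enrichment (a ratio), a −log10 p and a −log10 q value, and a summit. The authors used csaw with loess normalisation for their own comparison. The peak caller, its threshold, what the signal is relative to and whether replicates were pooled are not given in the sources used here, so the authors' fold enrichment was used only as a rank within a list.

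Overlapping rows were merged into 1 region with the values of the row of highest signal. An overlap of at least 1 bp with the other list made a region shared. Genes, exons and starts came from GENCODE M21, and promoter sequences from RefSeq (GRCm38.p6). A region was placed at a promoter (summit within 1 kb of a start of the gene), in an exon, in an intron, or in the upstream or downstream flank. Coordinates are those of the control region for shared regions and count from 1. Python 3.11.15, numpy 2.4.6, scipy 1.17.1, pandas 2.3.3 and matplotlib 3.10.9 were used. Merging, matching and placing were tested on simulated data.

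The 10 genes and all gene lists were chosen with earlier results of these data known. All 10 genes are named. Of their regions the text gives each promoter region, each control-only region and up to 5 others of highest percentile per gene, any further region having been picked after its values were seen, and genes of other lists are named where they have a control-only region or no promoter region in either list, except for some that are not reported here. Alternatives were 50% overlap, a −log10 q of at least 5, lists of equal numbers, flanks of 5 and 50 kb, rank by −log10 p, other promoter windows, regions without other genes' starts, and each gene left out. The rank among single-partner regions, the count of single summits, the set without Rorb, Prdm1 and Thrb, and the longer sequence window were added after seeing the data.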

Additional observations from a re-analysis of the deposited data

How the results depend on the processing

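No paired analysis was possible because each genotype has 1 list only. The control-only share at the 10 genes ran from 20.5% (flanks of 50 kb) to 37.0% (lists of equal numbers). For equal numbers the regions of lowest −log10 p in the longer db/db list were dropped. The share over all control regions was then 13.1% instead of 4.16%. With lists of equal numbers the db/db-only share fell to 22.7% (10 of 44, with 13.0% over all db/db regions). The median change in percentile of shared regions became −0.461 (−0.892 over all). In the shortened db/db list 5 of the 10 genes had a promoter region, against 58.4% of all protein-coding genes. With percentiles among single-partner regions the median change was 0.110. Without Rorb, Prdm1 and Thrb the db/db-only share was 13.6% (3 of 22), since these genes hold 23 of the 26 db/db-only regions, and the control-only share was 34.5% (10 of 29). Leaving out each gene in turn gave control-only shares between 23.4% and 31.0% and db/db-only shares between 34.6% and 41.9%. Promoter regions were counted at 9 genes in the control list under every alternative run, and at 5 to 8 in the db/db list (8 with a window of 2 kb). Over all protein-coding genes the shares ran from 56.0% to 60.6% in control and from 58.4% to 63.8% in db/db. Equal numbers cut only the db/db list and so could not change the control count. The control regions here had a −log10 q of at least 32.7, well above the cut of 5. The share of windows with GGATTA was 18.8% with 250 bases before and 50 after the start, and GATTA gave 43.8%. Ranking by −log10 p or among single-partner regions cannot change the shares, which rest on overlap alone.

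A region is present or absent by thresholds that are not given in the sources used here. Without replicate lists and read depths, differences between the genotypes cannot be told apart from differences between 2 libraries or 2 thresholds. All 14 control-only regions lie below the 50th percentile of their list.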

Other observations

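At the rod target genes, which CRX, NRL and NR2E3 switch on, control-only regions were found at Guca1b and Gnat1 (3 each), at Pde6b, Cnga1, Prph2 and Pde6a (2 each) and at Gngt1 (1). Pde6b and Cnga1, which encode a subunit of the rod phosphodiesterase and of the rod cation channel, and Guca1b had a promoter region in the control list and none in the db/db list. Those of Gnat1, which encodes rod transducin alpha, were between the 2.74th and the 7.18th percentile, and Gnat1 had a promoter region in both lists. Pde6a and Gngt1 had no promoter region in either list.

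Among the further photoreceptor regulators, Samd7 and Samd11, which encode partners in a repressive complex of rods, had a promoter region in the control list only. That of Samd11 was at the 83.9th percentile, above the strongest control-only region of the 10 factors, and that of Samd7 at the 6.79th. Mef2c and Casz1 had 2 control-only regions each and Onecut1 had 1. At the cone target genes 1 control-only region was found, at the promoter of Gnat2 (22.0th percentile). Arr3, Pde6h, Pde6c, Cngb3 and Gngt2 had no promoter region in either list.

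At the Müller glia factors the control-only regions, 1 each at Rax, Hes1, Nfia, Nfib and Nfix, were at the 12.7th percentile or below, and all 10 of these genes had a promoter region in both lists. Among bipolar factors Isl1 had 1 control-only region, at its promoter, and Bhlhe23, Lhx4 and Neurod4 had no promoter region in either list. At the factors of amacrine, ganglion and horizontal cells 0 of 23 control regions were control-only and 16 of 39 db/db regions were db/db-only (41.0%). The shares over the whole lists were 4.16% and 31.3%. Of these factors Ptf1a, Tfap2b, Pou4f1, Pou4f2 and Lhx1 had no promoter region in either list.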
